A study of Ovis aries with 40 samples.

Results

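The longissimus dorsi, the large muscle along the back, was compared in Texel fetuses at 85 d of gestation (T85) and at 100 d (T100). Texel is a sheep breed kept for heavy muscling, and the study took it as a natural carrier of a mutation in the gene of myostatin (GDF8, MSTN), a secreted inhibitor of muscle growth, and Ujumqin as a breed without it. No genotype of single fetuses is given in the labels. Arrays were taken as members by their titles, which name the breed and the stage, and 7 of the 40 arrays of the series met this rule, 3 at T85 and 4 at T100. Each array held RNA from the muscle of 1 purebred fetus collected at caesarean section from a ewe that had been synchronized for oestrus and inseminated with semen of her own breed. The labels name no treatment and no engineered allele for any of them. The T85 fetuses were 1 female and 2 males, and the T100 fetuses were 3 females and 1 male. According to the methods 3 ewes were used for each breed at each stage, and the 4 T100 fetuses may therefore include twins. Dams are not given in the labels, and all fetuses were treated as independent in the tests. The other Texel stages (70, 120 and 135 d) and the Ujumqin fetuses of 85 and 100 d (U85 and U100, 3 arrays each), an indigenous breed of northern China, were used only for comparison.

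In sheep the primary and secondary muscle fibres are laid down during fetal life, and in the last part of gestation the fibres grow, take on adult contractile proteins and build the enzymes and hormone receptors that muscle uses after birth. Glucocorticoids, growth hormone, insulin-like growth factors and thyroid hormone are known regulators of this maturation. By the histology of the study, fibre number in Texel surged at 85 d and again at a stage later than 100 d. For that later stage the study holds a new wave of fibre formation to be most probable. By that account the interval from 85 to 100 d lies between the surges and is not the end of fibre formation in this breed.

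Expression was measured with a sheep oligonucleotide array of 15008 probes, each a 60-base DNA strand, and values are log2 of the quantile-normalized fluorescence signal, so that a difference of 1 is a 2-fold change. On at least 1 fetal array 14379 of them stood well above background and were tested, 1744 of them with a gene symbol. The median raw signal was 583.0 to 616.6 on the T85 arrays and 415.5 to 483.8 on the T100 arrays before normalization, 83.8 to 89.2% and 89.1 to 90.7% of spots were well above background, and no spot was saturated. Of the 10 markers of skeletal muscle listed, 4 were measured (TNNC2, MYLPF, MYH1 and MYOG) and all were well above background on every array. Their summed linear signal was 904723 to 918790 at T85 and 923429 to 993717 at T100. Most of this sum came from TNNC2 (18.85 to 18.91 on the log2 scale) and MYLPF (18.60 to 18.75). Quantile normalization makes the highest values nearly alike on every array, so that the sum cannot show a change in muscle content. The Y-linked gene USP9Y separated the 3 males (12.81 to 12.97) from the 4 females (1.68 to 3.54), as labelled. T85 replicates 1 and 2 lay on one slide, T100 replicates 2, 3 and 4 on another, and T85 replicate 3 and T100 replicate 1 shared a slide.

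Between 85 and 100 d, 103 of the 14379 probes changed (0.716%), by the threshold of an adjusted p under 0.05 in limma with a difference of 2-fold or more. Of these, 56 were higher (0.389% of probes tested) and 47 lower (0.327%) at 100 d. The genes that rose included HSD11B1, which regenerates active glucocorticoid inside cells, the glucocorticoid-responsive transcription factor KLF9, the growth hormone receptor GHR, the metabolic enzymes PDK4, FBP2 and CPT1A, and ACTN3, the structural protein of the Z-disc of fast fibres. The genes that fell included PON1, a lipoprotein-associated esterase, the sterol reductase TM7SF2 and the acyl-CoA thioesterase ACOT7. The largest rise was 6.65-fold and the largest fall 4.16-fold, and 79 of the 103 probes changed less than 3-fold. T85 and T100 did not overlap for 102 of the called probes, against 31% of all probes tested. Only 29 called probes were matched to a gene symbol by the sources used for naming, standing for 17 genes that rose and 9 that fell, and 74 were not matched. One of the latter, A_70_P004621, is annotated in the study's supplement as STAT3, a transcription factor of cytokine signalling, in a form that was read only after its values were seen. It had a mean of 11.32 at T85 and 9.79 at T100 and fell by 1.53 ± 0.33 (SE, adjusted p = 0.0399), and it passed in 1 of the 7 fits that left out an array.

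**Figure D1:**
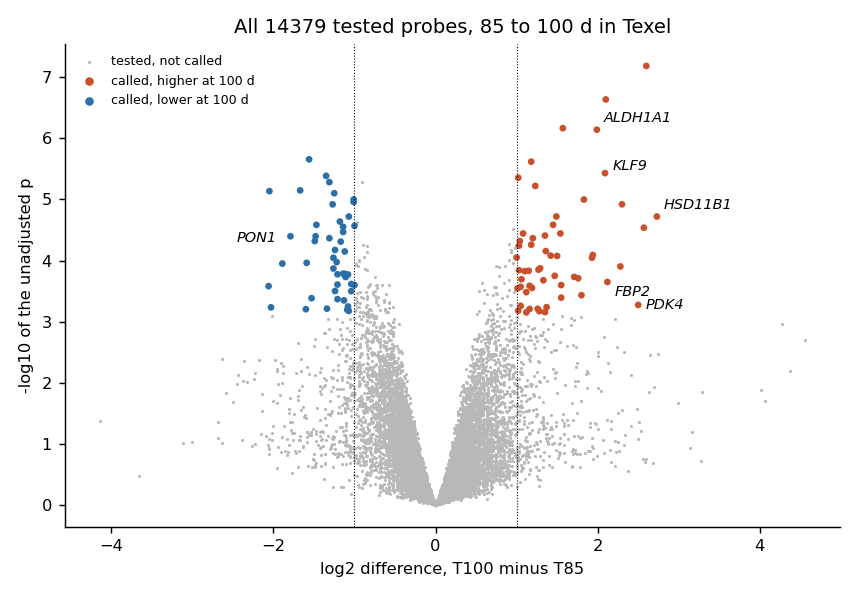
Every tested probe by its log2 difference (T100 minus T85, x axis) and the negative log10 of its unadjusted p (y axis), with the 56 probes called higher at 100 d in red and the 47 called lower in blue. The dotted lines mark 2-fold, and 767 probes lay at or beyond them, most without passing the test.

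The count rested on few arrays. Without T85 replicate 2, the array with the most spots marked as outliers (142) and the fewest well above background (83.8%), it was 8 and without T85 replicate 1 it was 22, without T100 replicates 2, 3 and 4 it was 40, 56 and 35, and without T85 replicate 3 or T100 replicate 1 it was 60 or 69. With the slide as a fixed block the contrast reduces to the pair of arrays on the shared slide, and no probe passed, with 525 at an unadjusted p under 0.05. As a random block 114 passed. Within that slide all 103 probes had the sign of the full comparison and 75 differed 2-fold or more, but those 2 arrays are part of the full comparison too. Stage and slide otherwise cannot be told apart.

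The probes of several called genes are shown because the 60 bases fix what the array could measure. TM7SF2 and CPT1A were each read by a pair of probes laid almost on the same bases, which are in capitals, so that the pair repeats 1 measurement rather than adding a second. FBP2, ACTN3 and PON1 were read by a single probe each, shown in lower case.
TM7SF2 A_70_P046852: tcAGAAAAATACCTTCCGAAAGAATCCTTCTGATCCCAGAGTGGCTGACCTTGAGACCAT
TM7SF2 A_70_P046851: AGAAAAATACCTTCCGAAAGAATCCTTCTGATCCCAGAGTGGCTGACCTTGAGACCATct
CPT1A A_70_P051282: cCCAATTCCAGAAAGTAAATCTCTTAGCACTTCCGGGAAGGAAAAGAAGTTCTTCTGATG
CPT1A A_70_P051281: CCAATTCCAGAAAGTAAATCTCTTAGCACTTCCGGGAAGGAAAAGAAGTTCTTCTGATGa
FBP2 A_70_P063416: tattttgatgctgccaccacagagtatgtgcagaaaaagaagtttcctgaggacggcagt
ACTN3 A_70_P037371: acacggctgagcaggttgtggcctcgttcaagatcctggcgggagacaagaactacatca
PON1 A_70_P045271: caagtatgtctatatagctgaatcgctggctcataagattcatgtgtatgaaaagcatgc

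Among genes of hormone action, HSD11B1 showed the largest rise of the named genes that passed the test. It was at 8.84, 8.46 and 8.89 in T85 replicates 1 to 3 and at 11.76, 11.36, 11.36 and 11.37 in T100 replicates 1 to 4. Every T100 array was above every T85 array, and the rise was 6.65-fold (log2 difference 2.73 ± 0.43, SE, adjusted p = 0.0119). A second probe, placed elsewhere in the transcript (bases 1273 and 1151 of the same record are the starts of the pair), rose by 2.57 (adjusted p = 0.0139). GHR, through which growth hormone acts, was at 11.00, 10.91 and 10.48 at T85 and at 12.11, 12.04, 11.80 and 11.94 at T100. It rose 2.26-fold (1.18 ± 0.20, adjusted p = 0.017). PTGFR, the receptor of prostaglandin F, rose 3.38-fold (1.76 ± 0.35, adjusted p = 0.0299) at a low signal, well above background on 1 of 3 T85 arrays and on all 4 T100 arrays.

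Of the 20 measured genes in the list of hormone receptors and steroid handling, 2 rose (HSD11B1 and PTGFR) and none fell. In this list 16 had a difference above 0 (49.8% of all probes did), and the median difference was 0.52 against -0.002 over all probes. The list does not hold GHR, given above, or the somatostatin receptor SSTR2, which fell by 1.01 (adjusted p = 0.00885 in limma). The progesterone receptor PGR was not well above background on any T85 array and did not pass (adjusted p = 0.0533). The glucocorticoid receptor NR3C1 had a difference of 0.52 (adjusted p = 0.42), and HSD11B2, the enzyme that inactivates glucocorticoid, one of -0.24 (adjusted p = 0.655). The thyroid hormone receptors THRA and THRB had differences of 0.50 and 0.27 and did not pass.

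Of the 14 measured genes of the insulin-like growth factor and growth hormone axis, GHR alone passed, and the median difference was 0.12. IGF1 and IGF2, the ligands, had differences of 0.10 (adjusted p = 0.83) and 0.16 (adjusted p = 0.661) on the probes counted. A second IGF2 probe had -0.62 (adjusted p = 0.368), with T85 arrays at 15.49 to 15.94 and T100 arrays at 14.62 to 15.35, so that the IGF2 probes disagreed in sign. The receptors IGF1R and IGF2R had -0.23 and -0.82, and their other probes gave -0.43 and 0.17 for IGF1R and -0.83 and -0.10 for IGF2R, none of which passed. The binding proteins ranged from -1.09 for IGFBP2 (adjusted p = 0.0864) to 0.58 for IGFBP3 (adjusted p = 0.222).

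KLF9 and ALDH1A1 had the firmest named rises. KLF9 was at 7.43, 6.47 and 7.33 at T85 and at 8.54, 9.38, 9.40 and 9.37 at T100, a 4.27-fold rise (2.09 ± 0.28, adjusted p = 0.00682). T100 replicate 1 was the lowest of its group and still above every T85 array. ALDH1A1, which makes retinoic acid from retinal, was at 9.10, 9.39 and 9.24 at T85 and at 11.04, 11.03, 11.26 and 11.58 at T100, a 3.96-fold rise (1.99 ± 0.23, adjusted p = 0.0026). Both calls held whichever of the 7 arrays was left out, with adjusted p from 0.00525 to 0.0437 for KLF9 and from 0.00747 to 0.0198 for ALDH1A1.

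The called members of the lists of glucose and fatty acid use rose. PDK4, which shuts off pyruvate entry into oxidation, was at 10.75, 8.87 and 10.33 at T85 and at 11.88, 13.35, 12.90 and 11.80 at T100, a 5.66-fold rise (2.50 ± 0.56, adjusted p = 0.0454). Its replicates were widely spread, and leaving out any of the 7 arrays ended the call (adjusted p from 0.0642 to 0.206, log2 difference from 1.95 to 2.88). FBP2, the muscle fructose-1,6-bisphosphatase, was at 10.54, 9.15 and 8.97 at T85 and at 11.41, 12.10, 11.49 and 11.66 at T100, a 4.33-fold rise (2.12 ± 0.43, adjusted p = 0.0328). It passed without T85 replicate 1, the array nearest to T100 (adjusted p = 0.0269), and missed the threshold when any of the other arrays was left out (0.058 to 0.154). CPT1A, which commits long-chain fatty acids to mitochondrial oxidation, was at 6.78, 6.37 and 6.77 at T85 and at 8.13, 8.29, 8.29 and 8.01 at T100, a 2.91-fold rise (1.54 ± 0.26, adjusted p = 0.0153), and its call was lost without T85 replicate 1 (0.0545) or 2 (0.0943).

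Of 18 measured genes of glycolysis, glycogen and glucose uptake, these 2 (PDK4 and FBP2) rose, none fell, and the median difference was 0.17. The glucose transporters pointed different ways without passing: SLC2A4, the insulin-responsive transporter of muscle, had a difference of 0.77 (adjusted p = 0.169), and SLC2A1, the fetal and basal one, had -1.0 (adjusted p = 0.0971). Of 10 measured genes of mitochondrial respiration and fatty acid oxidation, CPT1A alone passed. The muscle isoform CPT1B had a difference of -0.09 (adjusted p = 0.896), and the median of the list was 0.23.

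ACTN3 was the only one of 9 measured genes in the list of fast and adult contractile genes that passed. It was at 13.74, 13.34 and 14.05 at T85 and at 15.01, 15.51, 14.99 and 15.32 at T100, a 2.82-fold rise (1.5 ± 0.27, adjusted p = 0.0207). The call was lost without T85 replicate 1 (0.0866) or 2 (0.125) and without T100 replicate 2 (0.0683) or 4 (0.0649). The list's median difference was 0.77, and 5 of the 9 had an unadjusted p under 0.05 and were higher at 100 d, against 8.25% of all probes. Among these 5 was the elongation factor EEF1A2 (difference 0.93), which is not a contractile protein. PYGM, a metabolic enzyme also in the list, went the other way with -0.52 (unadjusted p = 0.0314 in limma). MYH1, the fast IIx myosin heavy chain, was at 13.23, 14.12 and 12.79 at T85 and at 14.41, 15.89, 14.44 and 15.74 at T100, a difference of 1.74 ± 0.52 that did not pass (adjusted p = 0.0983). On 8 of the 9 genes T100 replicate 2 was the highest T100 array, and on 7 of them T100 replicate 1 was the lowest.

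Other probes for MYH1 gave differences of 2.00 and 0.86, neither of which passed. The probe with 0.86 (adjusted p = 0.114) shares 44 bases in a row with a probe for MYH2, the fast IIa myosin, which also had 0.86 (adjusted p = 0.0842). The other MYH2 probe had 0.90 (adjusted p = 0.1). The pair is shown with the shared run in capitals, because signal from these near-identical transcripts cannot be assigned to either gene with certainty.
MYH1 A_70_P041866: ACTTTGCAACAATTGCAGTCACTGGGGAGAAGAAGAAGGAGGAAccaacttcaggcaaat
MYH2 A_70_P041861: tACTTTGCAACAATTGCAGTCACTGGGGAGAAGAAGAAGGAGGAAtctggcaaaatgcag

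None of the 7 measured members of the list of slow, embryonic and neonatal contractile genes passed (median difference 0.34). These were TPM2, ANKRD1, MYL6B, MYH7, TPM1, MYL6 and MB, not all of them contractile proteins. The embryonic and neonatal myosins MYH3 and MYH8 were not measured, so that the list does not describe them. MYH7, the slow myosin, had a difference of 0.34 (adjusted p = 0.71) and TPM2 one of 1.68 (adjusted p = 0.181). None of the 16 myogenic regulators passed either, although 15 of them had a difference below 0 and their median was -0.30. MYOG, which drives the fusion of myoblasts, had -0.77 (adjusted p = 0.185), MYF5 -0.68 (adjusted p = 0.274), MYOD1 -0.33 (adjusted p = 0.388) and the growth inhibitor MSTN -0.37 (adjusted p = 0.608). BMP2 had the lowest difference of the list, -1.96 ± 0.75 (adjusted p = 0.18), with T85 replicate 2 at 7.86 against 3.93 and 4.06 on the other T85 arrays. Cell cycle genes stood similarly, with 12 of 15 below 0, a median of -0.42 and none past the threshold. The lowest adjusted p among them was 0.0685, for CDK4 at -0.74.

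Other called rises lay outside these processes. IL15, a cytokine made by muscle, rose 2.93-fold on 1 probe (1.55 ± 0.33, adjusted p = 0.0396), but the other 3 probes gave 1.32, 1.25 and 0.67 and did not pass, and leaving out any array ended the call (adjusted p from 0.0764 to 0.16). GSTA1, a glutathione transferase, rose 3.80-fold on the dimmer of its probes (1.93 ± 0.35, adjusted p = 0.021), and the brighter one gave 0.90 (adjusted p = 0.0803). SFT2D1, a gene of vesicle traffic, rose 3.48-fold (1.80 ± 0.38, adjusted p = 0.0382), with T100 arrays from 8.32 to 9.69. GCLC, which makes the precursor of glutathione, was not well above background on any T85 array and was at least 1.37-fold higher at T100 (adjusted p = 0.0479). CEACAM5, EGFR and ATP1B1 also rose, by 1.05, 1.03 and 1.02 (adjusted p = 0.0464, 0.0253 and 0.0482), and were added to the text after their values were seen. A second ATP1B1 probe had 0.83 and did not pass (adjusted p = 0.0901).

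TM7SF2, which reduces the sterol ring in cholesterol synthesis, gave the firmest named fall. It was at 11.43, 11.82 and 11.58 at T85 and at 10.57, 10.10, 10.32 and 10.20 at T100, and it fell by 1.31 ± 0.18 (adjusted p = 0.00682), 2.48-fold. Its overlapping probe fell by 1.22 (adjusted p = 0.023). Of the 7 arrays left out in turn, only T85 replicate 2 ended the call (0.0683). ACOT7, which cleaves fatty acyl-CoA, was at 10.06, 11.17 and 10.97 at T85 and at 9.48, 9.36, 9.13 and 9.03 at T100, and it fell by 1.48 ± 0.25 (adjusted p = 0.0155). Without T85 replicate 2 or 3 or T100 replicate 4 its adjusted p was 0.0943, 0.0636 and 0.051. PON1 was at 5.18, 5.17 and 4.15 at T85 and at 2.43, 3.65, 2.88 and 3.20 at T100, and it fell by 1.79 ± 0.30 (adjusted p = 0.0155). Only 1 of the 4 T100 arrays was well above background for PON1.

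Of the 23 measured genes in the list of adipose tissue and of fatty acid and sterol synthesis, PON1 alone passed, and the median difference was -0.12. The sterol synthesis gene TM7SF2, which fell as given above, is not in this list. Sterol and fatty acid synthesis genes without a call included SCD at -1.05 (adjusted p = 0.0638), SQLE at -1.04 (adjusted p = 0.159) and INSIG1 at -1.02 (adjusted p = 0.0983), while LPL, which takes up fatty acid from lipoproteins, had 1.38 (adjusted p = 0.0698). The summed signal of 4 measured adipocyte markers (LPL, PLIN1, LEP and FABP4, of 5 listed) was 756 to 1291 at T85 and 1491 to 2486 at T100. In whole muscle a change in the number of such cells and a change in RNA per cell cannot be told apart.

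The remaining named falls were smaller. SSTR2, a somatostatin receptor, fell by 1.01 ± 0.15 (adjusted p = 0.00885), with T85 arrays at 7.69 to 8.17 and T100 arrays at 6.83 to 7.08. FARP1 fell by 1.21 ± 0.24 (adjusted p = 0.0276), MYO5B, a vesicle motor, by 1.14 ± 0.22 (adjusted p = 0.0276) and TRPC4AP, an adaptor of a ubiquitin ligase, by 1.31 ± 0.22 (adjusted p = 0.0159). GJB2, a connexin, fell by 1.07 ± 0.24 (adjusted p = 0.0482) on a probe well above background on 1 of the 7 arrays, and its 3 brighter probes gave -0.82, -0.69 and -0.16 without passing. CDH2, the adhesion molecule N-cadherin, fell by 1.6 (adjusted p = 0.048) on a probe well above background on 2 of 3 T85 arrays and 1 of 4 T100 arrays. It was the single called probe whose groups overlapped, and it was named after its values were seen.

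Leaving out 1 array at a time ended most of these calls for at least 1 array. HSD11B1 missed the threshold without T85 replicate 1 (adjusted p = 0.0545) or 2 (0.0738), as did PON1 (0.0866 and 0.0943). SSTR2 passed in 3 of the 7 fits, with an adjusted p of 0.0545 and 0.0738 without the same arrays and a difference under 2-fold in others (lowest and highest -1.14 and -0.91). GHR missed it without any of the 3 T85 arrays (0.0545 to 0.0753) and without T100 replicate 2 (0.0589) or 4 (0.051). TRPC4AP missed it without T85 replicate 2 (0.0743) or T100 replicate 4 (0.051). GSTA1, FARP1 and MYO5B passed in 2 of the 7 fits, SFT2D1, PTGFR, EGFR, ATP1B1 and CDH2 in 1 and GCLC, GJB2 and CEACAM5 in none, with highest adjusted p values from 0.105 for MYO5B to 0.179 for CEACAM5, and in each of them but GJB2 the highest came without a T85 array. The sign was the same in every fit.

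**Figure D2:**
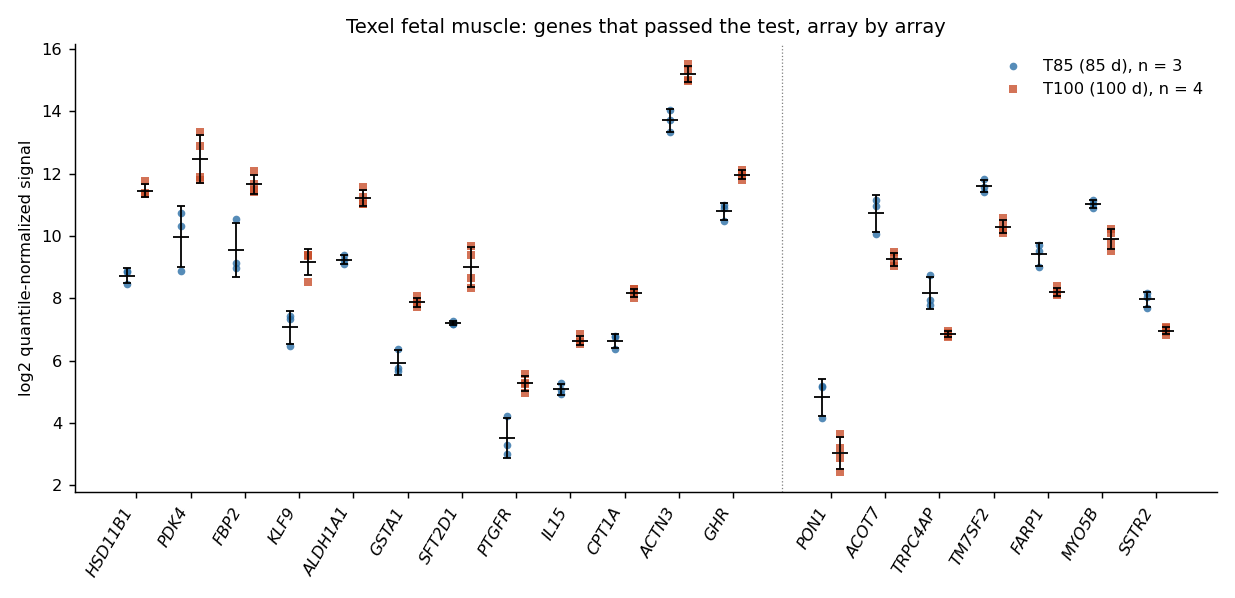
Log2 quantile-normalized signal (y axis) of 19 named genes that passed the test on each T85 array (blue circles, n = 3) and T100 array (red squares, n = 4), and bars show the mean and SD. Genes left of the dotted line rose and those right of it fell. The groups do not overlap for any of them, which was a condition for choosing most of them. Signal levels of different genes come from different probes and are not comparable.

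Most of the called probes were not matched to a symbol, and the lowest adjusted p of the whole comparison belonged to one of these. Probe A_70_P003106 was at 7.67, 7.32 and 7.42 at T85 and at 10.01, 9.93, 9.82 and 10.53 at T100, a rise of 2.60 ± 0.25 (adjusted p = 0.000937) that held whichever array was left out (adjusted p from 0.00292 to 0.0139). Probe A_70_P065851 rose by 2.30 ± 0.34 (adjusted p = 0.00891) and missed the threshold without T85 replicate 1 (0.0545) or 2 (0.0738). Probe A_70_P056206 fell by 2.06 ± 0.42 (adjusted p = 0.0336) and passed in 1 of the 7 fits that left out an array. Probe A_70_P028546 was at 11.35, 11.38 and 11.29 at T85 and at 9.42, 9.17, 9.38 and 9.18 at T100, and it fell by 2.05 ± 0.29 (adjusted p = 0.00745), a call lost only without T85 replicate 2 (0.0683) among these fits. Its bases are shown so that it can be identified, and 1 of the 3 reading frames of the printed strand runs through without a stop.
A_70_P028546: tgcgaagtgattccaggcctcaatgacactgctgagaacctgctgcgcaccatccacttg

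Several groups of genes had no member past the threshold. All 13 measured members of the interferon-stimulated list fell short, although 11 were above 0 and the median difference was 1.15, the highest of the lists. The list also holds IFNAR1, IFNAR2, IRF3 and IFNG, which belong to interferon signalling itself and not to its response genes. RTP4 was at 7.53, 7.55 and 8.50 at T85 and at 9.81, 11.03, 8.54 and 12.81 at T100 (difference 2.69 ± 0.93, adjusted p = 0.139), and ISG15 at 8.54, 9.28 and 10.13 and at 11.31, 12.40, 9.09 and 13.65 (difference 2.30 ± 0.94, adjusted p = 0.206). The T100 animals were spread widely. The median of the list was 9.81, 10.69, 8.89 and 11.47 on T100 replicates 1 to 4 against 8.47, 8.81 and 8.50 at T85. T100 replicate 4 also had the highest value among T100 arrays for 15 of 23 genes of leukocytes and antigen presentation, and its summed signal of 7 measured leukocyte markers (10 listed) was 4515 against 1667 to 2313 on the other T100 arrays and 1780 to 2005 at T85. CD4 and CD8A among these markers were not well above background on all arrays of either stage. The part of leukocyte content in the interferon values was not tested.

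Extracellular matrix genes (20 measured), endothelial and vessel genes (19), protein turnover genes (11) and ribosomal protein genes (21) had medians of 0.02, 0.11, 0.15 and 0.02, with none past the threshold. RPSA, a protein of the small ribosomal subunit, had an adjusted p of 0.0251 with a difference of -0.84, under 2-fold. COL3A1 had 1.34 on 1 probe and 0.27 to 0.31 on the other 3, and tenascin C (TNC) had -1.34 (adjusted p = 0.0769). VEGFA, the main angiogenic factor, had 0.92 (adjusted p = 0.157). The redox and stress list (14 measured) had a median of 0.05, and GSTA1 passed only on the probe given above. The haemoglobin and erythroid list (7 measured) had a median of 0.41 and no call, and the sum of the measured erythroid markers HBB and AHSP (9 listed) was 46716 to 67053 at T85 and 77357 to 99246 at T100. The list and the sum take the HBB probe with the highest mean over the Texel arrays, and a second HBB probe was at 12.87, 11.49 and 11.66 at T85 and at 14.85, 14.92, 14.32 and 14.92 at T100, without overlap, a difference of 2.74 that did not pass (adjusted p = 0.086). CNN1, the only 1 of 4 smooth muscle markers measured, was 33914 to 62779 at T85 and 16575 to 27819 at T100 on the linear scale, a log2 difference of -1.01 that did not pass (adjusted p = 0.173). Fibroblast marker sums overlapped between the stages, at 188758 to 224022 and 183277 to 215816, as did those of endothelium (479 to 600 and 538 to 652) and of cartilage and bone (389 to 514 and 469 to 565). STMN2, the 1 nerve marker measured of 7, was 92 to 137 at T85 and 137 to 304 at T100 (log2 difference 1.01, adjusted p = 0.55).

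**Figure D3:**
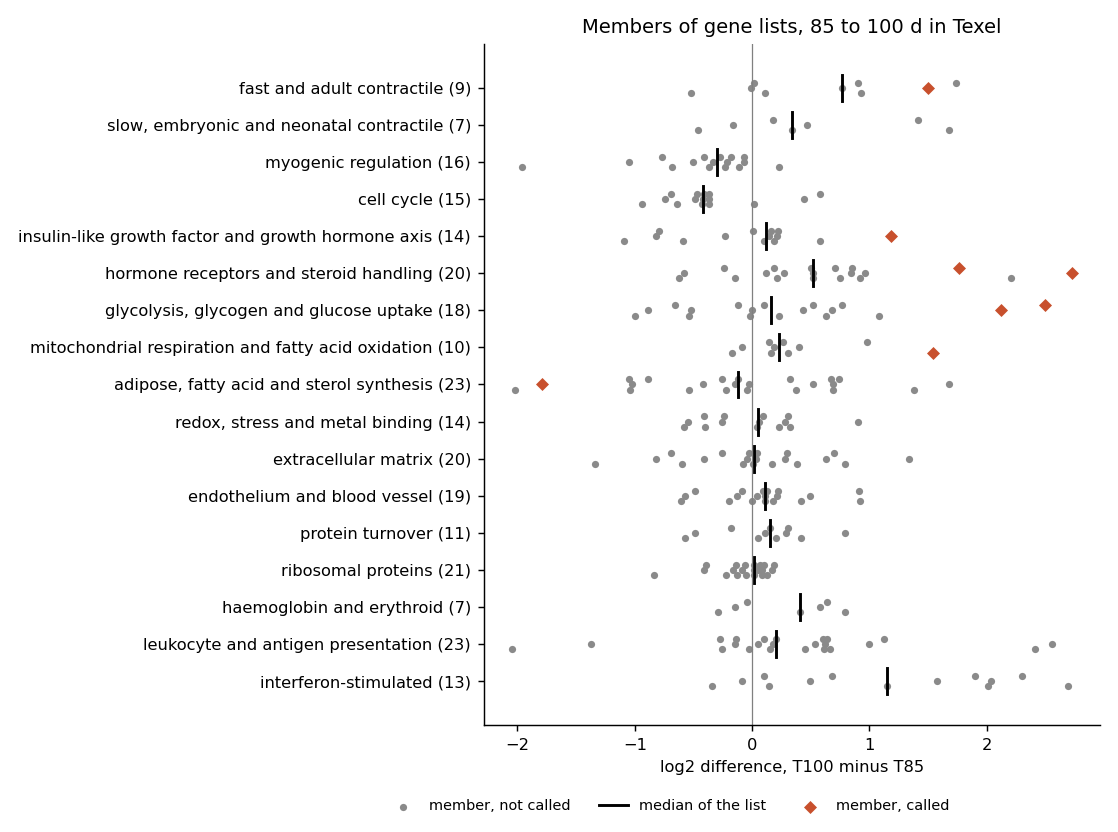
Log2 difference (T100 minus T85, x axis) of each measured member of 17 gene lists, with the number measured in parentheses. Diamonds are members that passed the test, grey points those that did not, and black bars list medians. The list medians run from -0.42 for cell cycle genes to 1.15 for the interferon-stimulated list, and 8 members passed.

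The 15 genes the study took to quantitative PCR were chosen on these samples, so that their values are not independent evidence. None passed between T85 and T100, and the median was 0.21. After MYH1 and TPM2 the differences above 0 ran from EEF1A2 (0.93) through TMOD4 (0.77), MYO9A (0.56), MYL6B (0.47), TXNRD1 (0.23), PIK3R1 (0.21) and ACTB (0.20) to CASQ1 (0.02). Those below 0 were TRRAP (-0.19), MSTN, LEF1 (-0.50), INSIG1 and TNC. The ACTB probe was dim, at 3.03 to 4.19 on the 7 arrays.

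For most called probes the 120 d mean lay beyond the T100 mean, but most were not called again over that step. For all 56 higher and all 47 lower probes, the means at 120 d and at 135 d lay on the T100 side of the T85 mean, a description that shares the T85 arrays with the comparison that chose the probes. At 120 d, 41 of the 56 lay above the T100 mean and 40 of the 47 below it. The same share over all tested probes was not computed. The step from 100 to 120 d itself called 517 of the 14379 probes tested, that from 70 to 85 d called 17 and that from 120 to 135 d called 35. Of the 56 higher probes 17 were called again upward from 100 to 120 d, and of the 47 lower ones 8 were called again downward and 1 upward. HSD11B1 had means of 6.76, 8.73, 11.46, 13.04 and 12.96 from the youngest to the oldest stage, and FBP2 rose from 5.58 at 70 d to 14.01 at 135 d. CPT1A had its highest mean at 100 d (8.18), against 6.74 at the youngest stage and 7.59 and 7.50 at the later ones. FARP1 had its lowest mean at 100 d and stood at 9.05 at 120 d.

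**Figure D4:**
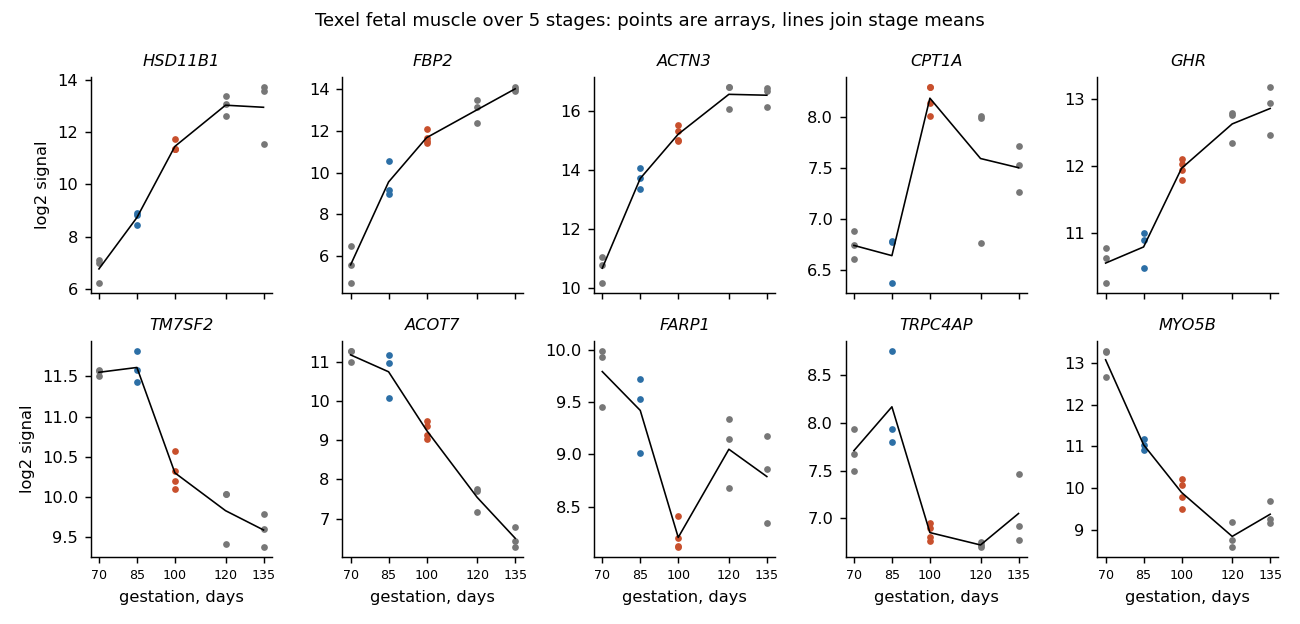
Log2 signal (y axis, a separate range in each panel) of 5 genes that rose (top) and 5 that fell (bottom) from 85 d (blue) to 100 d (red), at the 5 Texel stages by days of gestation (x axis). Points are arrays and lines join stage means. HSD11B1, FBP2 and ACTN3 climb from 70 to 120 d, CPT1A is highest and FARP1 lowest at 100 d.

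The same interval was measured in Ujumqin, in other animals and with no array in common. The U85 arrays all lay on the same slide and the U100 arrays on others, so that stage and slide cannot be told apart in Ujumqin either. The part of the slide in the changes shared by the breeds was not tested. There 94 probes were called between U85 and U100 (0.654%), of which 23 were among the 103 of Texel, 22.3% of the Texel list and 24.5% of the Ujumqin list, all in the same direction. The sign of the change was shared by 95 of the 103 Texel probes (92.2%) and by 68.0% of all probes tested. The median Ujumqin difference was 0.88 for the 56 higher Texel probes, whose Texel median was 1.35, and -0.72 for the 47 lower ones, whose Texel median was -1.22. HSD11B1 rose in Ujumqin too, by 2.36 (adjusted p = 0.00313), as did GHR by 1.35 (adjusted p = 0.00714), ACTN3 by 3.41 (adjusted p = 3.4e-07) and FBP2 by 4.36 (adjusted p = 1.3e-06). PDK4 had -0.16 (adjusted p = 0.96) and GSTA1 -0.10 (adjusted p = 0.946) there.

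These differences between the breeds were tested as such in a fit of all 31 fetal arrays. None of the 103 probes had an adjusted p under 0.05 for the difference of the change, and 28 had an unadjusted p under 0.05, against 6.05% of all probes, but these probes were chosen on the Texel side of the same contrast. The change of PDK4 was 2.66 larger in Texel (adjusted p = 0.777), and those of FBP2 and ACTN3 were 2.24 and 1.91 smaller (difference -2.24, adjusted p = 0.75, and -1.91, adjusted p = 0.503).

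Across all 14379 probes, 1 (0.00695%) differed between the breeds in its change, a probe for EEF1A2, the elongation factor isoform of muscle and nerve. In Texel it was at 14.92, 15.60 and 15.41 at 85 d and at 15.19, 16.66, 16.35 and 16.74 at 100 d, where the groups overlap. In Ujumqin it was at 11.61, 11.45 and 11.21 at 85 d and at 15.05, 16.01 and 15.28 at 100 d. The change was 0.93 ± 0.37 in Texel and 4.02 ± 0.33 in Ujumqin, a difference of -3.10 ± 0.46 (adjusted p = 0.00836). The U85 arrays alone stood low, while the other 3 groups lay between 14.92 and 16.74. A second EEF1A2 probe had a breed difference of -0.53 ± 0.38 (adjusted p = 0.902), with 7.11 to 7.38 at U85 and 8.27 to 9.0 at U100. The call was lost without T85 replicate 2 (adjusted p = 0.0579), without U85 replicate 3 (0.0552), with the slide as a fixed block (-2.88, adjusted p = 0.223) and in a fit of the 13 arrays of both stages alone (0.124). The study's quantitative PCR went the other way, with a higher ratio of Texel to Ujumqin for EEF1A2 at 100 d than at 85 d.

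**Figure D5:**
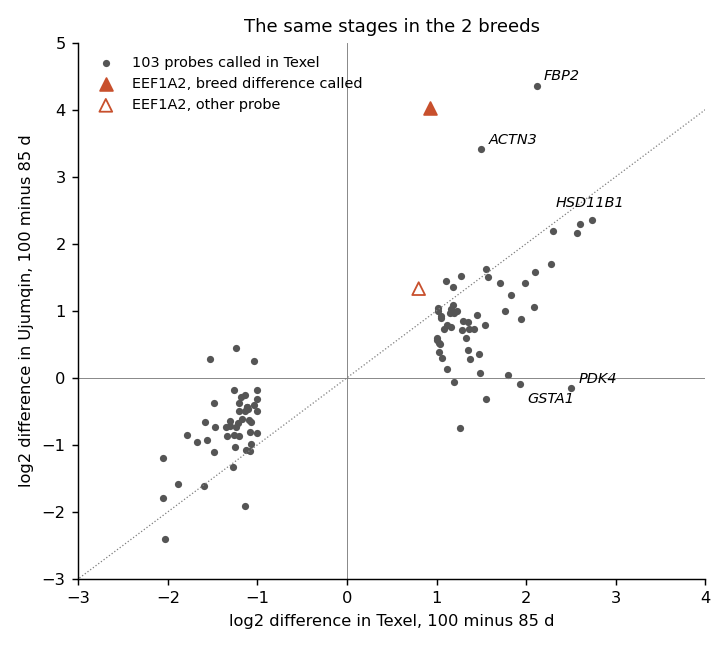
Log2 difference from 85 to 100 d in Texel (x axis) and in Ujumqin (y axis) for the 103 probes called in Texel (grey) and both EEF1A2 probes (triangles, the called one filled); the dotted line marks equal change. Of the 103 points 95 have the same sign in both breeds, PDK4 and GSTA1 lie near 0 in Ujumqin, and the called EEF1A2 probe lies at 0.93 and 4.02.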

How the data were processed

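RNA from the longissimus dorsi of each fetus was labelled with Cy3 and hybridised to 1-colour Agilent sheep arrays, scanned and extracted by the authors with Agilent Feature Extraction 10.5 per the labels. The deposited intensity (processed signal, background-subtracted by the scanner software per the file headers) was used for all values. Here each probe's spots were averaged, without those marked as outliers, and the 31 fetal arrays were quantile-normalized together, floored at 1 and put on the log2 scale. The deposited table of log2 values normalized by the authors was used as an alternative. A probe was tested if 1 or more of the 31 arrays had it well above background. Tests used limma 3.58.1 (R 4.3.3), the 16 Texel arrays in 5 stage groups for the change with stage, and all 31 in 10 groups for the breed difference, with Benjamini-Hochberg adjustment over all tested probes. Tests were checked on simulated data, in which 0 of 50 true changes of 1.5-fold, 16 of 50 of 2-fold, 37 of 50 of 3-fold and 39 of 50 of 4-fold were called. There 4 unchanged probes were called too, and 1 probe was called when none was changed. The simulated noise was independent between arrays and held no slide effect, so that the check does not cover the slides. A gene without a call can therefore still have changed. The limited number of arrays sets the precision, and the labels call the fetuses separate samples.

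Named are the 12 gene-named probes with the largest rise and the 12 with the largest fall that passed without overlap, up to 4 members of each list in each direction, the 15 genes of the quantitative PCR, 2 unnamed probes per direction and up to 6 probes with the lowest p for the breed difference. A gene with several probes was counted in a list by the probe with the highest mean over the Texel arrays. Other list members, and CDH2, CEACAM5, EGFR, ATP1B1 and STAT3, were added after their values were seen. Genes and lists were chosen with earlier results of these data known. Gene names came from the array files, updated through RefSeq accessions (662 of 683 matched), and for 290 probes from the annotation in the study's supplement, whose genes the authors listed for breed differences on these arrays. In this way 12 called probes were named (among them ACOT7, ACTN3, CEACAM5, FARP1, FBP2, GCLC, KLF9, MYO5B, PDK4, PON1 and SFT2D1). The result of 1 named probe is not reported here. No genome was used, and no coordinates are given.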

Additional observations from a re-analysis of the deposited data

Results flagged for a closer look

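In the 4 T100 arrays, some of the genes given above had 1 array apart from the other 3 by a gap test that chance passes in about 1 of 20 groups. Many genes are given above, so that a test of this rate flags some of them by chance alone. HSD11B1 was highest in replicate 1 (11.76, the others 11.36 to 11.37). KLF9 was lowest in replicate 1 (8.54, the others 9.37 to 9.40). The dim GJB2 probe was highest in replicate 4 (2.00, the others 1.57 to 1.58). TMOD4 was highest in replicate 2 (14.02, the others 13.45 to 13.51), and TXNRD1 was lowest in replicate 1 (4.72, the others 4.99 to 5.03). USP9Y was at 12.97 in replicate 3, the only male of the group, and at 2.56 to 3.54 in the others. The change of EEF1A2 from 85 to 100 d differed between the breeds by a test of the difference itself (-3.10, Texel minus Ujumqin; adjusted p = 0.00836). The study's quantitative PCR of EEF1A2 went in the opposite direction, as given above.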

How the results depend on the processing

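The count of 103 changed probes stayed within 1.5 times under other scalings of the signal, the deposited table, other filters and floors, kept outlier spots, a trended robust fit, sex as a covariate and the slide as a random block (82 to 125). It was 61 with normexp background correction, 294 in a fit of the 7 arrays alone, 261 in a fit of all 31 fetal arrays and 401 with array weights. It was 0 with the slide as a fixed block, 18 with the replicate block, 785 at 2-fold within the shared slide, 321 by the methods' t-test with an unadjusted p (80 after Benjamini-Hochberg), 459 with an unadjusted p, 216 with no fold limit and 8 to 69 with 1 array left out. Without both arrays of the shared slide, an alternative chosen after seeing the data, it was 19. The fits were also read for 29 called probes given above. These include the unmatched A_70_P003106, A_70_P065851, A_70_P056206 and A_70_P028546 and are not the same set as the 29 matched to a symbol. None of them changed sign in these fits. Of them, 15 lost their call with normexp, 8 with sex as a covariate, 5 with 75th percentile scaling, 22 with the replicate block, 21 by the methods' t-test after Benjamini-Hochberg and 0 to 4 under the other scalings, filters and floors. For the breed difference the count of 1 became 4 in the fit of 13 arrays, 216 with array weights, 318 with an unadjusted p and 0 to 5 with 1 array left out; it was 1 with the replicate block, and 1 with the slide as a fixed block, where another probe passed. No slide holds all 4 groups, so no within-slide value exists for it. Apart from the array left out, the cause was not tested. The replicate numbers do not pair fetuses: same-numbered T85 and T100 arrays correlated at -0.043, 0.036 and -0.033 in their deviations, and 0 of 3 T85 arrays correlated best with its own number. Signal over background limits PON1, PTGFR, GJB2, GCLC and CDH2 among the called genes, and BMP2, PGR, THRA, MYO9A, TXNRD1 and ACTB among the others, whose probes were not well above background on every array.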
